A study of Mus musculus with 4 samples.

Results

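The NF-kappaB family was followed through 10 genes in 32Dcl3-Abl1ko cells with and without IL-3. The genes were taken by name from the 23756 rows of the gene table, and all 10 were found and passed the filter for expression. They are the DNA-binding subunits Rela, Relb, Rel, Nfkb1 and Nfkb2, the inhibitors Nfkbia, Nfkbie and Tnfaip3, and the IkappaB kinases Chuk and Ikbkb. RNA-seq covered 2 libraries from culture with IL-3 (Abl1ko/IL3+) and 2 from culture without it (Abl1ko/IL3-). 32D is a mouse bone marrow line that needs IL-3 for survival, and the question here was which genes differ between edited cells with and without it. The paper describes the Abl1ko/IL3- cells as independent of IL-3, and in its survival experiment such cells arose after gradual withdrawal. The absence of IL-3 and the outgrowth of independent cells therefore cannot be told apart. Every library in both groups carries the Abl1 KO genotype, made with CRISPR/Cas9 guides and a lentiviral Cas9 vector, and the 32Dcl3-Abl1 group with IL-3 is not analysed here, so the values compare IL-3 conditions within edited cells only. The paper's methods describe the choice of single clones, while its results also call the IL-3-independent cells populations, each from its own guide. The sources used here tie no library to a clone or guide. They also do not say how long the cells of these libraries had been without IL-3. The replicates are stated to be biological, with no mention of separate cultures, and p-values measure the spread between these libraries.

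NF-kappaB is a family of dimeric transcription factors that rest in the cytoplasm bound to IkappaB proteins. Signals from TNF, interleukin-1 and Toll-like receptors activate the IkappaB kinase complex, which marks IkappaB for degradation and frees the dimers to enter the nucleus, where they drive inflammatory and survival genes and also their own inhibitors. Much of this control acts on protein, and mRNA levels say nothing of phosphorylation or of where the subunits are.

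Library totals ranged from 48953174 to 60382588 counts, and 3 counts, the limit taken for a count of 0, corresponded to 0.0497 to 0.0613 CPM (counts scaled by library depth), a limit that covers counting error only. Abl1 itself had 1322 and 2222 counts with IL-3, against 1544 and 2256 without it (log2 fold change 0.21, standard error 0.45, edgeR adjusted p = 0.980), and as every library is labelled KO these counts cannot check that label. The labels call the cells pre-B cells, and the markers went against that name: the 8 measured B-lineage markers summed to 19.5 to 26.9 CPM (highest gene Cd79b). The 12 granulocyte and promyelocyte markers (highest gene Ngp) summed to 2273 to 6379 CPM. Within that list, markers moved with the comparison in both libraries without IL-3: 5 of the 12 were higher and 1, Mpo, lower with no overlap of the groups (19.4% and 17.9% of all genes tested), 6 had an unadjusted edgeR p under 0.05 (5.91% of all genes) and 0 an adjusted one, and the median log2 fold change was 2.09. Named after their values were seen, S100a8 had 74 and 21 counts with IL-3, against 3410 and 7167 without it, and S100a9 had 460 and 89, against 6735 and 21503. In Abl1ko/IL3+ replicate 2 the 7 erythroid markers (highest gene Hba-a1) reached 11671 CPM, against 480 in Abl1ko/IL3+ replicate 1 and 5146 and 2734 without IL-3. The 8 mast cell and basophil markers (highest gene Prss34) were 1442 CPM in Abl1ko/IL3+ replicate 1 and 250 to 441 CPM in the other libraries, and the 9 monocyte and macrophage markers (highest gene Adgre1) were 333 and 61.4 CPM with IL-3, against 102 and 221 without it. T-lineage markers (5 genes, highest Cd3d) summed to 0.837 and 1.47 CPM with IL-3, against 2.69 and 5.94 without it. Of these, 3 were higher without IL-3 with no overlap of the groups (19.4% of all genes tested). Of the 4 tested, 2 had an unadjusted edgeR p under 0.05 (5.91% of all genes) and 0 an adjusted one. Stromal markers (6 genes, highest Dcn) summed to 3.15 to 4.82 CPM. The Abl1ko/IL3+ replicates thus stood apart from each other in erythroid, mast cell and monocyte markers. The Abl1ko/IL3- replicates stood apart in granulocyte and promyelocyte markers, at 2273 and 6379 CPM, against 3272 and 2413 CPM with IL-3. Among 9 monocyte and macrophage markers, 3 were higher and 2 lower without IL-3 with no overlap (19.4% and 17.9% of all genes tested). For erythroid markers this was 0 and 1 of 7, and for mast cell and basophil markers 0 and 0 of 8.

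Without IL-3, all 5 subunit genes had lower fitted levels, both kinase genes had higher ones, and none of the 10 passed the test. Over all genes tested, 8589 had a log2 fold change below 0 and 7946 one above 0. These directions partly rested on 1 library. Rel turned to 0.42 without Abl1ko/IL3+ replicate 1. Without Abl1ko/IL3+ replicate 2, Relb turned to 0.013 and Ikbkb fell to 0.0018. The number past an adjusted p of 0.05 was 0 of 10 members in edgeR's quasi-likelihood test, where the share over the 16535 genes tested was 0% (0 genes). At an unadjusted p under 0.05 it was also 0 of 10 in either direction, against 5.91% of all genes (3.36% lower and 2.56% higher without IL-3). DESeq2 called 0 of 10 members, against 1.64% of all genes, and 0 of 10 at an unadjusted p under 0.05, against 8.28%. The members' median log2 fold change, without over with IL-3, was -0.18, beside -0.027 over all genes tested. In 4 of 10 members the normalized CPM of the 2 groups did not overlap (3 lower and 1 higher without IL-3), against 37.3% of all genes (17.9% lower and 19.4% higher), a share near the background. These are bulk libraries, in which fewer cells of a type and less RNA per cell cannot be told apart.

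**Figure D1:**
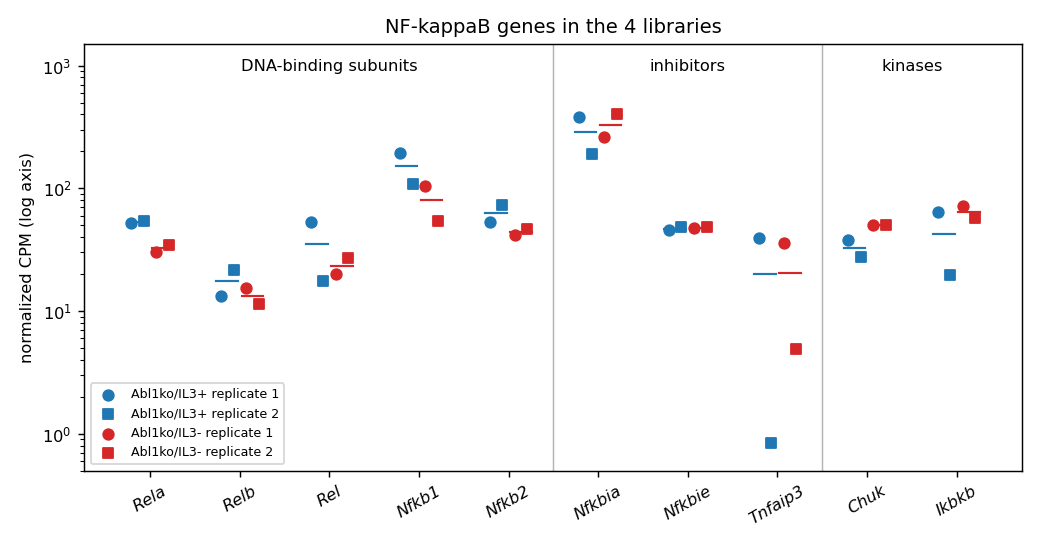
Normalized CPM (log axis) of the 10 NF-kappaB genes in each of the 4 libraries, with horizontal lines at the group means. Rela sits at 30.3 and 34.6 CPM without IL-3, under both libraries with IL-3, while Tnfaip3 runs from 0.846 to 39.3 CPM within the cells kept with IL-3.

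Rela encodes p65, the subunit with the main activation domain of the canonical dimers (chr19:5637483-5648130 in GRCm38, plus strand). Its normalized CPM was 52.5 and 54.0 with IL-3, against 30.3 and 34.6 without it. Both libraries without IL-3 lay below both with it, on each of 3 scalings (TMM, library size and FPKM). The log2 fold change was -0.71 (standard error 0.31, 95% interval -1.50 to 0.076), with edgeR adjusted p = 0.854 and an unadjusted p of 0.0677. It was the lowest p of the 10 members. Leaving out any 1 library moved the value between -0.81 and -0.62. The Abl1ko/IL3+ replicates differed by only 0.041 on the log2 scale, at percentile 3.24 of all genes tested.

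Nfkb1 encodes p105, which is processed to the DNA-binding subunit p50 (chr3:135584655-135691546, minus strand). It had 195 and 109 normalized CPM with IL-3, against 105 and 54.2 without it, the largest fitted difference of the 10 genes, with a log2 fold change of -0.93 (standard error 0.50, 95% interval -2.22 to 0.35, edgeR adjusted p = 0.870). The groups did not overlap on this scale, by a small margin, but they overlapped when counts were scaled to library size or taken as FPKM. Without Abl1ko/IL3+ replicate 1 the log2 fold change was -0.44, and without Abl1ko/IL3- replicate 1 it was -1.49. The 3 tested genes whose centred log2 CPM lay nearest to that of Nfkb1 over the 4 libraries were A430078G23Rik, Lmbrd1 and Zfp41, at Euclidean distances of 0.13, 0.17 and 0.18.

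Nfkb2 encodes p100, the precursor of p52 in the non-canonical branch (chr19:46304320-46312385, plus strand). It had 53.4 and 72.8 normalized CPM with IL-3, against 41.5 and 46.3 without it. Both libraries without IL-3 were the lower ones on all 3 scalings, with a log2 fold change of -0.52 (standard error 0.33, edgeR adjusted p = 0.895). Without Abl1ko/IL3+ replicate 2 the difference was -0.28. Exons of Psd and of a promoter lncRNA on the other strand cover 18.1% of the exon bases of Nfkb2, and the sources used here do not say whether counting used strand.

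Rel, the c-Rel subunit of lymphoid and myeloid cells (chr11:23736847-23770970, minus strand), had 52.8 and 17.7 normalized CPM with IL-3, against 19.9 and 27.1 without it. The groups overlapped, since the single high library was Abl1ko/IL3+ replicate 1. The log2 fold change of -0.59 (standard error 0.60, edgeR adjusted p = 0.940) turned to 0.42 without that library and was -1.17 without Abl1ko/IL3+ replicate 2. Relb, the partner of p52 (chr7:19606217-19629438, minus strand), had 13.3 and 21.7 normalized CPM with IL-3, against 15.31 and 11.4 without it. Its groups overlapped too, and the log2 fold change of -0.39 (standard error 0.45, edgeR adjusted p = 0.949) was 0.013 without Abl1ko/IL3+ replicate 2.

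**Figure D2:**
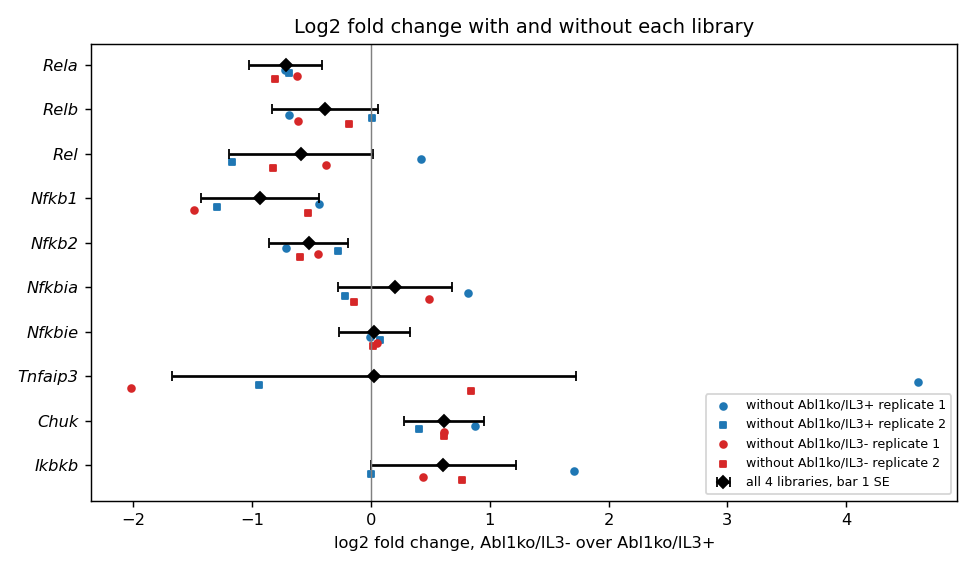
Log2 fold change of each gene, Abl1ko/IL3- over Abl1ko/IL3+, from all 4 libraries (black, bar 1 standard error) and with each library left out (coloured points). Rela stays between -0.81 and -0.62, whereas Tnfaip3 spreads from -2.02 to 4.60.

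The make-up of the subunit mRNA was then compared within each library, on FPKM, which takes account of gene length. Rela held 30.8% and 34.9% of the summed FPKM of the 5 subunits with IL-3, against 28.8% and 34.8% without it. The Nfkb1 share was 29.2% and 17.9% with IL-3, against 25.5% and 13.9% without it, and the Nfkb2 share 21.01% and 31.5% with IL-3, against 26.4% and 31.1% without it. These shares overlapped between the groups, and so did those of Relb (6.15% to 11.5%) and Rel (4.69% to 12.8%). The precursor genes Nfkb1 and Nfkb2 together made up 50.2% and 49.4% with IL-3, against 51.9% and 45.0% without it. The summed FPKM itself was 53.3 and 40.4 with IL-3, against 29.2 and 29.97 without it, so that both libraries without IL-3 lay below both with it (two-sided exact permutation test, p = 0.333, the smallest that 2 against 2 libraries can give, and 1 when adjusted over the 14 shares, sums and ratios compared).

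**Figure D3:**
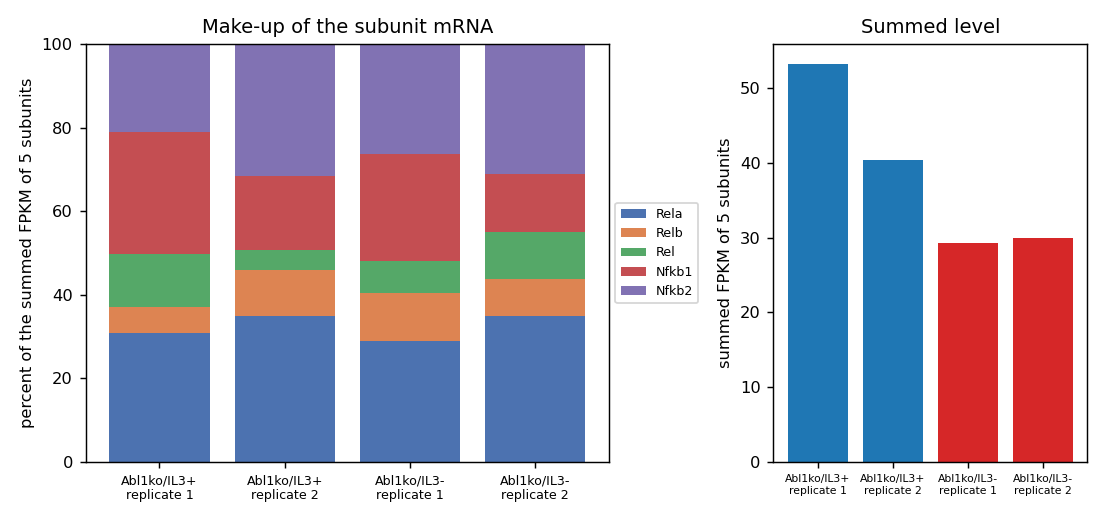
Left, the percent of the summed FPKM of the 5 subunits held by each gene in each library; right, the summed FPKM. The sum is 53.3 and 40.4 with IL-3, against 29.2 and 29.97 without it, while the share of Rela keeps within 28.8% to 34.9%.

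Among the inhibitors, Nfkbie was the steadiest and Tnfaip3 the most variable of all members. Nfkbie encodes IkappaB epsilon (chr17:45555703-45563169, plus strand). Its normalized CPM was 45.4 and 48.4 with IL-3, against 47.2 and 48.5 without it, a ratio of 1.07 between the highest and the lowest library. The log2 fold change was 0.030, with a 95% interval of -0.74 to 0.80 (edgeR adjusted p = 0.999). The interval rests on the spread that edgeR shares between genes and is wide beside these 4 values.

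Nfkbia encodes IkappaB alpha, the inhibitor that NF-kappaB itself induces (chr12:55489410-55492647, minus strand). Per length, on FPKM, it was the most abundant of the 10 mRNAs in all 4 libraries. Its normalized CPM was 384 and 189 with IL-3, against 260 and 400 without it. The groups overlapped, the lowest library being Abl1ko/IL3+ replicate 2, and the log2 fold change was 0.21 (standard error 0.48, edgeR adjusted p = 0.981). It was 0.82 without Abl1ko/IL3+ replicate 1 and turned to -0.21 without Abl1ko/IL3+ replicate 2. On FPKM, the ratio of Nfkbia to the summed subunits was 4.30 and 2.33 with IL-3, against 4.71 and 7.68 without it. The ratio of Nfkbia to Rela was 13.96 and 6.67 with IL-3, against 16.4 and 22.1 without it. Both ratios were higher in both libraries without IL-3 (two-sided exact permutation test, p = 0.333 each, the smallest possible, adjusted p = 1).

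Tnfaip3 encodes A20, a ubiquitin-editing enzyme that shuts off the signal to the kinases (chr10:19000910-19015410, minus strand). It had 2535 and 46 counts with IL-3, against 1725 and 286 without it. The 46 counts have a 95% Poisson interval of 33.7 to 61.4, so counting error covers little of the gap. In normalized CPM this was 39.3 and 0.846 with IL-3, against 36.0 and 4.93 without it. Each group therefore held a high and a low library, 46.5-fold apart with IL-3 and 7.31-fold apart without it. The group means were nearly alike, at 20.1 ± 27.2 CPM with IL-3 and 20.5 ± 22.0 CPM without it (SD, n = 2), and the log2 fold change was 0.027 with a standard error of 1.70 (edgeR adjusted p = 0.999). That value carries no direction: it was -0.099 when counts were scaled to library size, 4.60 without Abl1ko/IL3+ replicate 1, -0.94 without Abl1ko/IL3+ replicate 2 and -2.02 without Abl1ko/IL3- replicate 1. The difference between replicates stood at percentile 99.4 of all genes tested with IL-3 and at percentile 96.5 without it. In the same libraries, in the same order, the erythroid marker sum was 480 and 11671 CPM with IL-3, against 5146 and 2734 without it, and the mast cell and basophil sum 1442 and 250 CPM with IL-3, against 416 and 441 without it, and their part in the Tnfaip3 values was not tested.

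**Figure D4:**
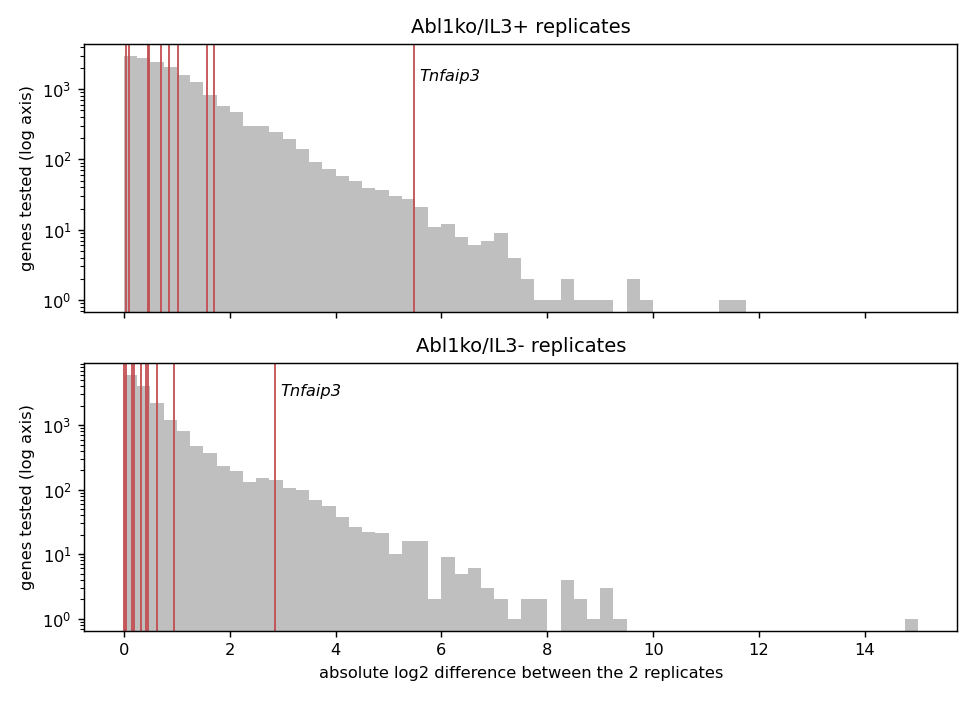
Absolute log2 difference between the 2 replicates of a group, for all 16535 genes tested (grey, log axis) and the 10 NF-kappaB genes (red lines). Tnfaip3 stands at 5.48 with IL-3 and 2.86 without it, whereas the members' median, 0.77 with IL-3 and 0.38 without it, lies beside the median of all genes, 0.77 and 0.37.

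Several of these genes are known targets of NF-kappaB, and their promoters were searched for the consensus kappaB motif of 10 bases on both strands in the 250 bases before the gene start (sequences from RefSeq, build GRCm38.p6). Of the 7 members matched by symbol, 5 held it (Rel, Nfkb2, Nfkbia, Nfkbie and Tnfaip3), whereas Rela and Chuk did not. The motif occurred in 7.25% of all 32851 promoters and in at least one promoter of 8.23% of all genes. Of the other NF-kappaB pathway genes matched to a promoter, 21 of 77 (27.3%) held it. Among the known target genes in that set it was 9 of 21 (42.9%). The stretches before the start are shown for 4 of the 5, trimmed to bases outside annotated exons, because these genes include both the steadiest and the most variable member. Capitals mark the motif, and all read 5′ to 3′ toward the gene.
Tnfaip3: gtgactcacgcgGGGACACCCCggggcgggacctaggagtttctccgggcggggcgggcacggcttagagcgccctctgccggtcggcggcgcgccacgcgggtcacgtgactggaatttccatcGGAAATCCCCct
Nfkbia: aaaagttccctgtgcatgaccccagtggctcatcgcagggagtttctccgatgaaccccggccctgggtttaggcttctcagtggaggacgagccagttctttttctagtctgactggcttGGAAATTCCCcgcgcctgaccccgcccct
Rel: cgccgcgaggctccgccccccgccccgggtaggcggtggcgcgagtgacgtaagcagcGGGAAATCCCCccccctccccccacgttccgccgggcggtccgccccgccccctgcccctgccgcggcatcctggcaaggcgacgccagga
Nfkbie: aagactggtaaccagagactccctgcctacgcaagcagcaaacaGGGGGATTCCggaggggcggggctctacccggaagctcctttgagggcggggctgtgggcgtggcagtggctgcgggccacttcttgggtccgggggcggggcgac

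The Tnfaip3 stretch (chr10:19015411-19015547, minus strand) held the motif at 125 and 12 bases before the start. In GENCODE M21 the gene reaches farther upstream, to base 19015657, so the stretch lies inside that gene model. In Nfkbia (chr12:55492648-55492797, minus strand) it began 29 bases before the start, in Rel (chr11:23770971-23771119, minus strand) at 92 bases with an overlapping match at 91, and in Nfkbie (chr17:45555550-45555699, plus strand) at 106 bases. Nfkb2 held the runs GGGAATTCCCC, 39 bases before its first listed start, and GGGGCTTTCC, 11 bases before it. That start (base 46304737) lies inside the gene span given above, and annotated exons cover both runs. Of the genes with the motif, Rel, Nfkbia and Tnfaip3 had their lowest normalized CPM in Abl1ko/IL3+ replicate 2. Nfkb2 had its highest value in that library, and Nfkbie its lowest in Abl1ko/IL3+ replicate 1. The part of the motif in these values was not tested. The ratio of highest to lowest normalized CPM was 1.07 for Nfkbie, 1.76 for Nfkb2, 2.12 for Nfkbia, 2.99 for Rel and 46.5 for Tnfaip3, and for Rela and Chuk, which lacked the motif, it was 1.78 and 1.82. A match in these letters does not show that a factor binds there.

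Chuk encodes IKK alpha, the catalytic subunit that the non-canonical branch depends on (chr19:44073335-44107480, minus strand). It lies on the same chromosome as Nfkb2, with 2.20 megabases between them, and Rela is on that chromosome as well. Chuk had 38.0 and 27.4 normalized CPM with IL-3, against 50.1 and 50.01 without it. It was the one member with both libraries without IL-3 above both with it, on all 3 scalings, with a log2 fold change of 0.61 (standard error 0.34, 95% interval -0.25 to 1.48, edgeR adjusted p = 0.873). The 2 libraries without IL-3 differed by less than almost all other genes, at percentile 0.502. Leaving out any 1 library gave between 0.40 and 0.88.

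Ikbkb encodes IKK beta, the main kinase of the canonical branch (chr8:22659212-22706589, minus strand). Its normalized CPM was 64.3 and 19.8 with IL-3, against 71.5 and 57.0 without it. The fitted log2 fold change was nearly that of Chuk, 0.61 (standard error 0.61, edgeR adjusted p = 0.937), but the groups overlapped and a single low library, Abl1ko/IL3+ replicate 2, set it: without that library the value was 0.0018, and without Abl1ko/IL3+ replicate 1 it was 1.71. The FPKM ratio of Chuk to Ikbkb was 2.22 and 5.21 with IL-3, against 2.63 and 3.29 without it, overlapping between the groups.

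Compared per length, the median FPKM over the 4 libraries ordered the genes as Nfkbia (184), Nfkbie (13.8), Rela (12.3), Nfkb2 (10.3), Chuk (7.79), Nfkb1 (7.34), Relb (3.32), Ikbkb (2.98), Rel (2.81) and Tnfaip3 (2.44). Only the step from Nfkbia to Nfkbie was clear of the spread, with 93.9 FPKM in the lowest library of Nfkbia and 14.7 in the highest of Nfkbie. The ranges of the other neighbours in this order overlapped. FPKM divides by the union of exons, which at 19078 bases for Ikbkb was the longest of the members, and for Nfkbia was 1610 bases.

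The wider pathway was read from 7 lists of genes chosen by role, of which 93 genes were measured and 84 passed the filter for expression. None had an adjusted p under 0.05 in edgeR, where the lowest was 0.727, and 6 of 84 had an unadjusted p under 0.05, against 5.91% of all genes. Their median log2 fold change was -0.0070, with 41 above 0 and 43 below. In 30 genes, 18 higher and 12 lower without IL-3, the groups did not overlap, against 19.4% and 17.9% of all genes in these directions. DESeq2 called 1 of the 84, Cxcl2.

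Of the 4 other IkappaB proteins and Bcl3, Nfkbid had the clearest difference. It encodes a nuclear IkappaB protein and had 10.6 and 14.8 normalized CPM with IL-3, against 34.3 and 28.0 without it (log2 fold change 1.29, standard error 0.39, edgeR adjusted p = 0.745, unadjusted 0.0212). Both libraries without IL-3 exceeded both with it. Among the 11 other kinases none had an unadjusted p under 0.05, and the groups overlapped in all 11. Ikbkg, the NEMO scaffold that joins Chuk and Ikbkb, was named after its values were seen: its 60.8 normalized CPM in Abl1ko/IL3+ replicate 1 stood against 4.70 to 7.56 in the other libraries. Exons of G6pdx on the other strand cover 5.15% of its exon bases.

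Of the 23 adaptors and ubiquitin enzymes (median log2 fold change 0.013), 5 were higher and 2 lower without IL-3 with no overlap of the groups, against 19.4% and 17.9% of all genes, and 1 had an unadjusted p under 0.05, against 5.91%. These shares are near the background. Of the 10 brakes and deubiquitinases (median -0.24), 5 were lower and 1, Nkrf, higher without IL-3 with no overlap of the groups, against 17.9% and 19.4% of all genes. Nlrc5, best known as an activator of MHC class I genes, was one of them, with 10.5 and 1.77 normalized CPM with IL-3, against 0.669 and 0.793 without it (log2 fold change -3.06, edgeR adjusted p = 0.785, unadjusted 0.0269). Its size rests on Abl1ko/IL3+ replicate 1, without which the log2 fold change was -1.26 (unadjusted p = 0.103 in edgeR).

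The ligands (8 tested, median -0.25) held 2 genes with an unadjusted p under 0.05, in opposite directions. Tnfsf11, which encodes RANKL, had 4.28 and 4.10 normalized CPM with IL-3, against 1.07 and 1.15 without it (log2 fold change -1.91, standard error 0.52, edgeR adjusted p = 0.727, unadjusted 0.0144). Il1a, which encodes interleukin-1 alpha, had 7 and 0 counts with IL-3, against 26 and 161 without it (log2 fold change 4.84, edgeR adjusted p = 0.815, unadjusted 0.0328; 3.25 without Abl1ko/IL3- replicate 2), and exons of Gm14023 on the other strand cover 11.2% of its exon bases. None of the 7 receptors tested had an unadjusted p under 0.05, and their log2 fold changes kept within -0.40 to 0.38.

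Of the 21 target genes tested (median 0.19), 8 were higher and 2 lower without IL-3 with no overlap of the groups, against 19.4% and 17.9% of all genes. Cxcl2, a neutrophil chemokine, had 19 and 33 counts with IL-3, against 130 and 3504 without it (log2 fold change 6.13, standard error 1.66, edgeR adjusted p = 0.727, unadjusted 0.0141). Most of those counts were in Abl1ko/IL3- replicate 2. That library had the highest sum of granulocyte markers, 6379 CPM against 2273 to 3272 in the others. Ngp (232341 counts there) made up most of the sum, while Mpo (28978) was at its lowest. Without that library the log2 fold change of Cxcl2 was 2.59. In the other library without IL-3, Cxcl2 (130 counts) and the markers S100a8 (3410) and S100a9 (6735) were also above both libraries with IL-3. Mpo (43479 counts) was below both (121109 and 80294), while Ngp and Lcn2 lay between the libraries with IL-3 in CPM. The granulocyte marker sum of this library, 2273 CPM, was the lowest. The part of the granulocyte markers in the values of Cxcl2 and the other targets was not tested. DESeq2 gave Cxcl2 an adjusted p of 5.13e-05. The other 20 tested targets had no unadjusted p under 0.05, with log2 fold changes from -2.40 (Cxcl10) to 3.25 (Ccl3). Icam1, named after its values were seen, had the smallest absolute difference of them (log2 fold change -0.0030). It had 50.6 and 21.8 normalized CPM with IL-3, against 25.6 and 46.6 without it. Exons of Gm47079 on the other strand cover 11.7% of the exon bases of Icam1.

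**Figure D5:**
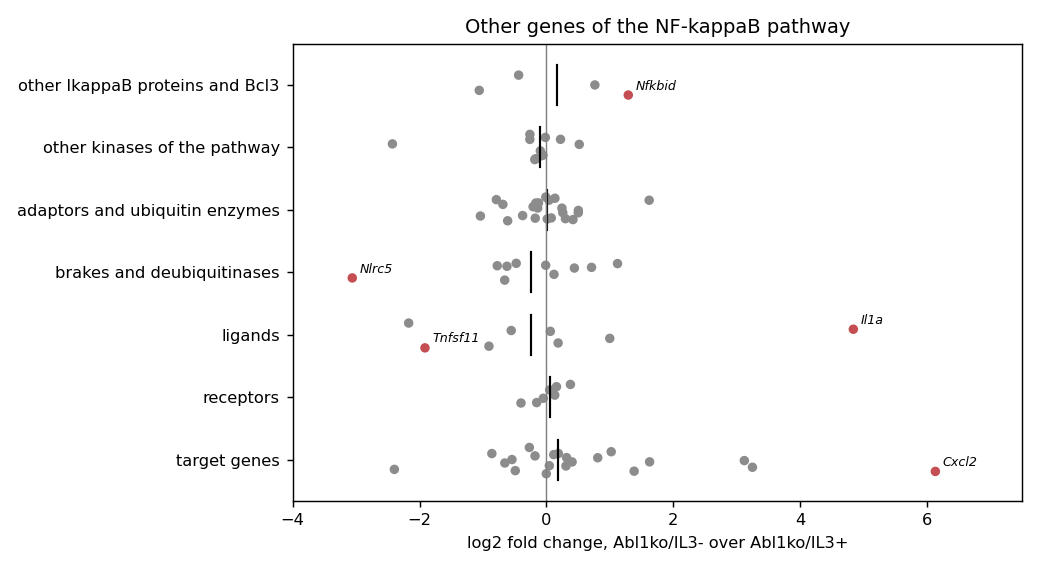
Log2 fold change, Abl1ko/IL3- over Abl1ko/IL3+, of 83 of the 84 other pathway genes that passed the filter, by role, with a black line at the median of each list (over all its tested genes) and red for an unadjusted p under 0.05. Cxcl2 lies farthest to the right at 6.13.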

How the data were processed

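RNA-seq of total RNA depleted of rRNA was read for 2 Abl1ko/IL3+ and 2 Abl1ko/IL3- libraries. The authors deposited raw counts per gene, which their methods describe as aligned to GRCm38 with Rsubread and counted with featureCounts. The submitters' processing notes also name STAR and Cuffdiff, with no role. The authors also deposited FPKM values, whose tool, like all versions and the strand setting, is not given in the sources used here. FPKM followed the counts: for 99% of 12946 genes with at least 20 counts, count over FPKM, scaled to its median, varied at most 1.04-fold between libraries.

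Genes passing filterByExpr were scaled by TMM, and edgeR 4.0.16 gave the quasi-likelihood F test (R 4.3.3), two-sided, adjusted by Benjamini-Hochberg over 16535 genes, threshold 0.05. Normalized CPM uses the TMM factors, 0.901 to 1.08. Standard errors and 95% intervals derive from the fold change and the F statistic. Each 2 libraries differed beyond sampling noise (chi-square per degree of freedom 246 or more). The 2 Abl1ko/IL3+ replicates differed most (648), above every pair across the groups (349 to 544). The tests were tried on simulated counts. Alternatives were DESeq2 1.42.0, library size scaling, other filters, the replicate number as a block, limma 3.58.1 on log2(FPKM + 1) and log2(FPKM + 0.1), and leaving out each library. Ratios were compared by exact permutation.

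Members and lists were chosen with earlier results of these data known. Named genes are all members, Abl1, pathway genes with an unadjusted p under 0.05, the 3 genes nearest to the member with the largest fold change, and the highest gene of each marker list. Others were named after their values were seen, and 1 pathway gene with an unadjusted p under 0.05 is not reported here. Of 102 pathway genes listed, 9 were not in the table and are not analysed here, nor are 5 of 60 markers. Promoter sequences were matched for 7 of 10 members.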

Additional observations from a re-analysis of the deposited data

How the results depend on the processing

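The count of NF-kappaB members past the adjusted threshold was 0 under every alternative run, including DESeq2 and each library left out. That shows no stability, since 2 libraries a group give wide errors. Over all genes the count was 0 (978 at an unadjusted p under 0.05), DESeq2 gave 271 genes (1369 unadjusted), and leaving out 1 library gave 0 to 22. For the other pathway genes DESeq2 gave 1, Cxcl2, and leaving out 1 library gave 0 to 2; the 2, without Abl1ko/IL3- replicate 1, were Cxcl2 and Cd14. The cause was not tested. Same-numbered libraries deviated from their group means with a correlation of -0.194 across genes and the labels do not say that they are pairs. With the replicate number as a block 0 members and 0 genes overall were called (548 unadjusted). With crossed numbers, added after seeing the data, 0 members and 0 genes were called (1136 unadjusted).

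Of 120 values of members under alternatives, 112 kept their direction and side of the threshold, 0 passed the threshold and 8 changed direction. Of the 8, 1 was Tnfaip3 with library size scaling (-0.099). The others came from leaving out 1 library. Over those fits Rel ranged from -1.17 to 0.42, Relb from -0.69 to 0.013, Nfkbia from -0.21 to 0.82, Nfkbie from -0.0029 to 0.080 and Tnfaip3 from -2.02 to 4.60. Rela, Nfkb1, Nfkb2, Chuk and Ikbkb kept their direction in all 12 alternatives. For 5 named pathway genes, recomputed after seeing the data, 0 of 59 values changed direction and 2, both of Cxcl2, passed the threshold.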

Other observations

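The genes here were chosen after their values were seen. Hspa13, which encodes a chaperone of the HSP70 family and lies on chromosome 16, had the pattern nearest to Tnfaip3 of all genes tested, with 3276 and 44 counts with IL-3, against 1853 and 253 without it. Its Euclidean distance in centred log2 CPM over the 4 libraries was 0.41, and the next gene, Ski, stood at 1.26. Exons of other genes do not overlap those of Hspa13 or Tnfaip3 in GENCODE M21.

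Of the 9 pathway genes that did not pass the filter for expression, 2 had more than 100 counts in a library, each in Abl1ko/IL3- replicate 2. Cd14, the co-receptor for lipopolysaccharide, had 2 and 0 counts with IL-3, against 8 and 589 without it. Ptgs2, which encodes cyclooxygenase 2, had 0 and 0 counts with IL-3, against 4 and 121 without it. Cxcl2 was highest in the same library, and so were Il1a and Ccl3. Ccl3 had 160 and 41 counts with IL-3, against 130 and 1628 without it. Other target genes peaked elsewhere. Il6 (38.2 normalized CPM) and Irf1 (49.4) were highest in Abl1ko/IL3+ replicate 1, and Cxcl10 (0.515) in Abl1ko/IL3+ replicate 2.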
